A study of Mus musculus with 2 samples.

Results

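The receptors and Janus kinases (JAKs) through which macrophages sense IL-4 and IL-13 were examined in bone marrow-derived macrophages (BMDMs), as 8 genes of the 32448 genes and unnamed identifiers on the arrays. The receptor chains were Il4ra, Il13ra1, Il13ra2 and Il2rg, and the kinases were Jak1, Jak2, Jak3 and Tyk2. Members were taken by name, as every non-control probe whose RefSeq accession belongs to 1 of these genes, which gave 10 of 39424 probes. Il4ra and Jak3 had 2 probes each, and the other genes had 1. All 8 genes were on the arrays, and all 8 were detected, which here means called well above background by the scanner software, on at least 1 array. BMDMs are macrophages grown from bone marrow cells in M-CSF, and these came from male mice aged 8 weeks that carry loxP-flanked Crif1 alleles (Crif1 f/f), with no Cre named in the methods. Untreated BMDMs and BMDMs given IL-4 for 18 h, both labelled as 18 h samples, were each measured on 1 single-colour Agilent mouse array, and the arrays lay on 1 slide. The number of mice behind each RNA and the IL-4 dose used for the arrays are not given in the sources used here. With 1 array per condition, no difference has a replicate check and no p-value is given.

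IL-4 binds IL-4Rα, which then pairs with the common γ chain to form the type I receptor or with IL-13Rα1 to form the type II receptor. IL-13 binds IL-13Rα1 and also uses the type II receptor, so the γ chain belongs to the IL-4 side and IL-13Rα1 is shared. JAK1 sits on IL-4Rα, JAK3 on the γ chain, and TYK2 or JAK2 on IL-13Rα1, and together they phosphorylate STAT6, the transcription factor behind much of alternative macrophage activation. IL-13Rα2 binds IL-13 tightly, has a short tail with no JAK site, and is best known as a decoy.

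After IL-4, the decoy receptor gene Il13ra2 went from a signal that could not be told from background to a clear one, at least 14.0-fold higher, and Jak2 was 2.27-fold higher. These were the only members at least 2-fold higher, 2 of 8, against 2.85% of the 19766 detected genes. No member was at least 2-fold lower, against 4.47% of those genes. Il13ra2 entered this count through the IL-4 array alone. Of the 7 members detected on both arrays, 1, Jak2, was at least 2-fold higher. The same held for 363 of the 17242 genes whose chosen probe was detected on both. The signalling chains and the other kinases stayed within 2-fold, from a log2 difference of -0.61 for Il13ra1 to 0.23 for Il2rg. The median log2 difference was 0.087 over the 8 members and -0.029 over all 19766 genes. Differences are log2 signal of the IL-4 array minus the untreated array, after subtracting the 75th percentile of each array.

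The promoters of the 2 genes that changed most are shown because they differ in kind. The sequences are the 250 bases before the start site, 5′ to 3′ on the gene's strand, from RefSeq on GRCm38.p6, chrX:147429193-147429442 on the minus strand for Il13ra2 and chr19:29251553-29251802 on the plus strand for Jak2. Capitals mark TATAAA, a match to the TATA box, and CG dinucleotides.

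Il13ra2: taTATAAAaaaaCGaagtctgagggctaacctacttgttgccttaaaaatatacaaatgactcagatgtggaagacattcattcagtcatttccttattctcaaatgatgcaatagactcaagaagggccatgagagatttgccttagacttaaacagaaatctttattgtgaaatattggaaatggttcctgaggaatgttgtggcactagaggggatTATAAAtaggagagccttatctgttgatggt

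Jak2: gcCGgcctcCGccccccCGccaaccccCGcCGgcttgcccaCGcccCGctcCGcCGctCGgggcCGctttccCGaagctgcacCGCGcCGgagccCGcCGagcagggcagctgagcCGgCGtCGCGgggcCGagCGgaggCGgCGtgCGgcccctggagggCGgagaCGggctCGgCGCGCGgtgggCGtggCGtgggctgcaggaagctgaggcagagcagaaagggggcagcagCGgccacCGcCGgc

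The window of Il13ra2, here 300 bases including 50 after the start, had a GC content of 37.7% and 1 CG dinucleotide, and 6.63% of 32851 mouse promoter windows of this length had a lower GC content. It held TATAAA at 31 and at 248 bases before the start. The window of Jak2 had a GC content of 81.0% and 44 CG dinucleotides, with no TATAAA, and 99.3% of promoter windows had a lower GC content. Il13ra2 was the only member with TATAAA on either strand, which 13.6% of all windows held. The other 6 members lay between, from 50.3% for Il2rg to 71.0% for Il13ra1. The palindromes that STAT proteins bind, written TTCNNNGAA and TTCNNNNGAA, read the same on both strands and were found in none of the 8 windows, while 14.6% of all windows held at least 1. No match says only that these letters are not in this window.

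Among the receptor chains, Il13ra2 stood apart. Its probe gave a background-subtracted intensity of 6.3 in untreated BMDMs, where the scanner software put the error at 99.9% of the value, and 437.7 after IL-4, where the error was 10.09%. Before background subtraction the median pixel intensity of this spot was 72 without and 536 with IL-4, and the negative control spots had a median of 57 on both. The probe was detected after IL-4 and not in untreated BMDMs, so the arrays bound the change from below. Set against the dimmest detected probe of the untreated array, at an intensity of 29.2, the difference was at least 3.81 on the log2 scale. The bound depends on the background step, since normexp correction of the median pixel intensity lowered it to 2.50, while without any bound the difference was 6.03. Under each of these settings Il13ra2 was more than 2-fold higher.

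Il4ra encodes the chain that binds IL-4. Its brighter probe gave an intensity of 947.6 in untreated and 1090.8 in IL-4-treated BMDMs. Its dimmer probe gave 161.0 and 208.7. After scaling, the log2 difference was 0.10 at the brighter and 0.27 at the dimmer probe, so both probes were higher after IL-4 and by less than 2-fold. The error that can be given without replicate arrays is the SD of the difference between spots, taken from probes printed in 10 spots each and within 1 log2 unit of the same signal, and it was 0.080 for the brighter and 0.11 for the dimmer probe. The software's own error of about 10% per spot corresponds to 0.20 on the log2 scale, which is larger than the difference at the brighter probe and close to that at the dimmer one.

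Il2rg, the common γ chain that completes the type I receptor, gave an intensity of 798.4 in untreated and 1001.8 in IL-4-treated BMDMs. The log2 difference was 0.23, with a spot SD of 0.081 and a software error of 0.20. It was positive under every scaling tried, from 0.17 to 0.55. Il4ra was likewise positive under every scaling, from 0.048 to 0.43.

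Il13ra1, which completes the type II receptor, was the receptor chain with the lower signal after IL-4, with an intensity of 161.4 in untreated and 113.1 in IL-4-treated BMDMs. The log2 difference was -0.61, a 1.53-fold lower signal, with a spot SD of 0.15 and a software error of 0.22. It was negative under every scaling tried, from -0.67 to -0.29, and did not reach 2-fold under any. Dim genes as a whole were slightly lower on the IL-4 array, with a median of -0.10 over the 3691 genes within 1 log2 unit of the signal of Il13ra1, and 9.86% of these were at least as far below 0 as Il13ra1.

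The differences of the receptor chains were unequal. The log2 difference of Il4ra exceeded that of Il13ra1 by 0.89 at the dimmer Il4ra probe, with a spot SD of 0.19, and by 0.72 at the brighter Il4ra probe, with a spot SD of 0.17. The difference of Il2rg exceeded that of Il13ra1 by 0.84, with a spot SD of 0.17, with a gap from Il4ra to Il2rg of -0.12 at the brighter Il4ra probe, with a spot SD of 0.11, and of 0.047 at the dimmer one, with a spot SD of 0.14. These gaps are the same under every scaling that subtracts 1 constant from an array, and signal levels themselves are not compared between probes. Their spot SDs leave out the software error of each probe. The signals of Il4ra and Il2rg were thus higher and that of Il13ra1 lower, all within 2-fold. For Il4ra the difference was within the software error at the brighter probe and little beyond it at the dimmer one. That of Il2rg was also little beyond its software error. Of the genes within 1 log2 unit of the same signal, 30.1% were at least as far above 0 as the brighter Il4ra probe. For Il2rg this share was 15.6%.

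**Figure D1:**
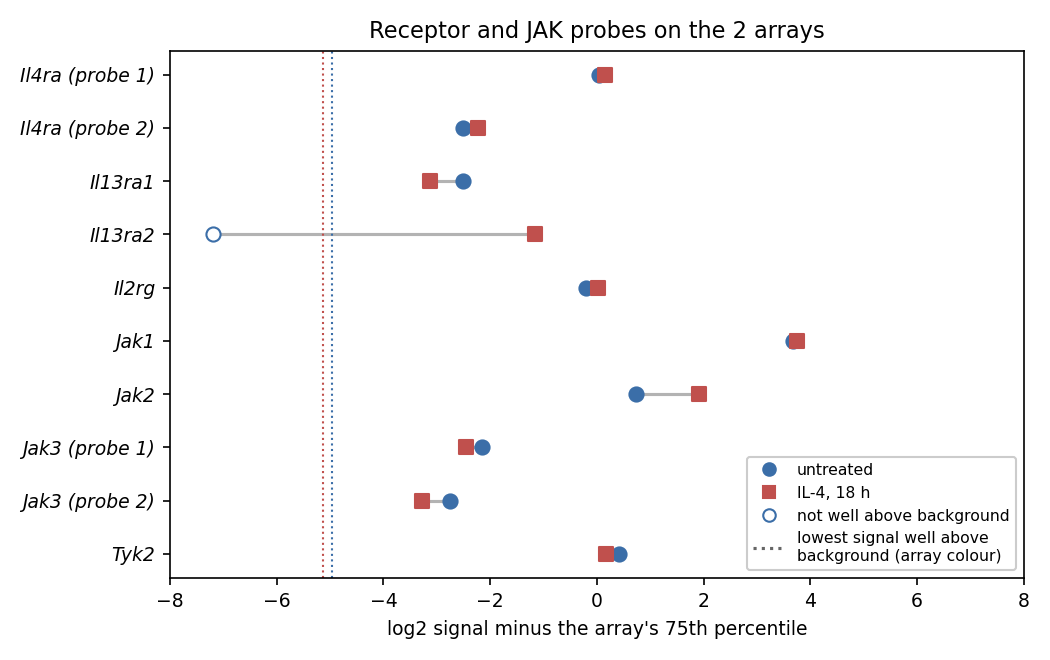
Scaled log2 signal of the 10 receptor and JAK probes (x axis, log2 signal minus the 75th percentile of the array) in untreated BMDMs (blue circles) and BMDMs given IL-4 for 18 h (red squares), 1 array each, with a grey line joining the arrays and an open symbol for a probe not detected. The dotted lines mark the dimmest detected probe of each array, at -4.97 and -5.14, and Il13ra2 in untreated BMDMs, at -7.19, is the single open symbol.

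Of the kinases, Jak2, which serves IL-13Rα1 and many other cytokine receptors, was the one at least 2-fold changed. Its intensity was 1518 in untreated and 3694 in IL-4-treated BMDMs, well above background on both arrays. The log2 difference was 1.18, with a spot SD of 0.075 and a software error of 0.20, and it lay between 1.13 and 1.51 under all scalings. Of the 3989 genes within 1 log2 unit of its signal, 1.15% were at least as far above 0, and 1.73% were at least 2-fold higher.

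Jak1, the kinase of IL-4Rα, gave an intensity of 11759 in untreated and 13234 in IL-4-treated BMDMs. Its log2 difference was 0.071, with a spot SD of 0.064 and a software error of 0.20. Its sign was not stable, since quantile normalization gave -0.011. Tyk2 gave 1228 and 1108, a log2 difference of -0.25 with a spot SD of 0.080 and a software error of 0.20. It turned to 0.077 when the arrays were scaled on spike-in controls.

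Jak3, the kinase of the γ chain, was dim on both arrays. Its brighter probe gave 207.1 in untreated and 178.2 in IL-4-treated BMDMs, and its dimmer probe 136.7 and 101.8. The log2 differences were -0.32, with a spot SD of 0.11 and a software error of 0.22, and -0.53, with 0.17 and 0.24. Both probes were lower after IL-4 and neither reached 2-fold, and with spike-in scaling the brighter probe came to 0.009. Spike-in scaling moves all genes up together, and relative to the median of genes detected on both arrays Tyk2 and Jak3 were at -0.23 and -0.30 under it as under the reported scaling.

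Set against each other, the 4 kinases showed unequal changes. The log2 difference of Jak2 exceeded that of Jak1 by 1.11, with a spot SD of 0.099, that of Tyk2 by 1.43, with a spot SD of 0.11, and that of Jak3 by 1.5 at the brighter and 1.71 at the dimmer probe, with spot SDs of 0.13 and 0.19. Jak1 exceeded Tyk2 by 0.32, with a spot SD of 0.10, and the gap from Jak3 to Tyk2 was -0.068 at the brighter Jak3 probe, within the spot SD of 0.14, and -0.28 at the dimmer one, beyond the spot SD of 0.19. By difference the order was Jak2, Jak1, Tyk2 and Jak3, at either Jak3 probe. The last pair changed places with quantile normalization, which gave -0.247 for Jak3 and -0.27 for Tyk2. Cyclic loess also swapped them, at -0.21 for Jak3 and -0.242 for Tyk2. The spot SDs leave out the software error of each probe and any spread between cultures.

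**Figure D2:**
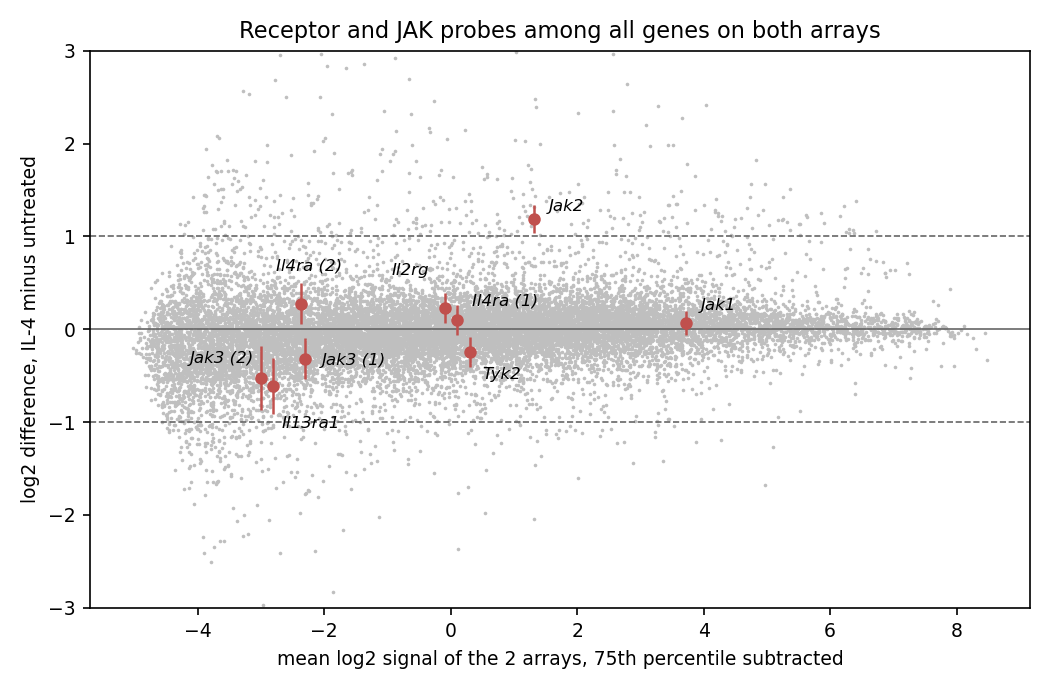
Log2 difference, IL-4 minus untreated (y axis), against the mean scaled log2 signal of the arrays (x axis) for the 17242 genes detected on both arrays (grey, 24 of them beyond the y axis limits of -3 and 3), with the 9 such receptor and JAK probes in red and bars of 2 spot SDs. Numbers in brackets count the probes of a gene from the brightest, dashed lines mark 2-fold, and Jak2 at 1.18 is the red point above them.

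Several scalings move all genes together, so the members were also read relative to the median of the 17242 genes detected on both. That median was -0.015 as reported, 0.20 with median scaling and 0.31 with spike-in scaling. Relative to it, under every scaling by 1 constant per array, Jak2 was at 1.199, Il2rg at 0.24, Il4ra at 0.12, Jak1 at 0.086, Tyk2 at -0.23, Jak3 at -0.30 and Il13ra1 at -0.60. By rank, 97.9% of the 19766 genes lay below Jak2, 82.3% below Il2rg, 69.8% below Il4ra, 65.5% below Jak1, 26.1% below Tyk2, 21.8% below Jak3 and 10.4% below Il13ra1. The bound of Il13ra2 lay above 99.9% of genes.

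**Figure D3:**
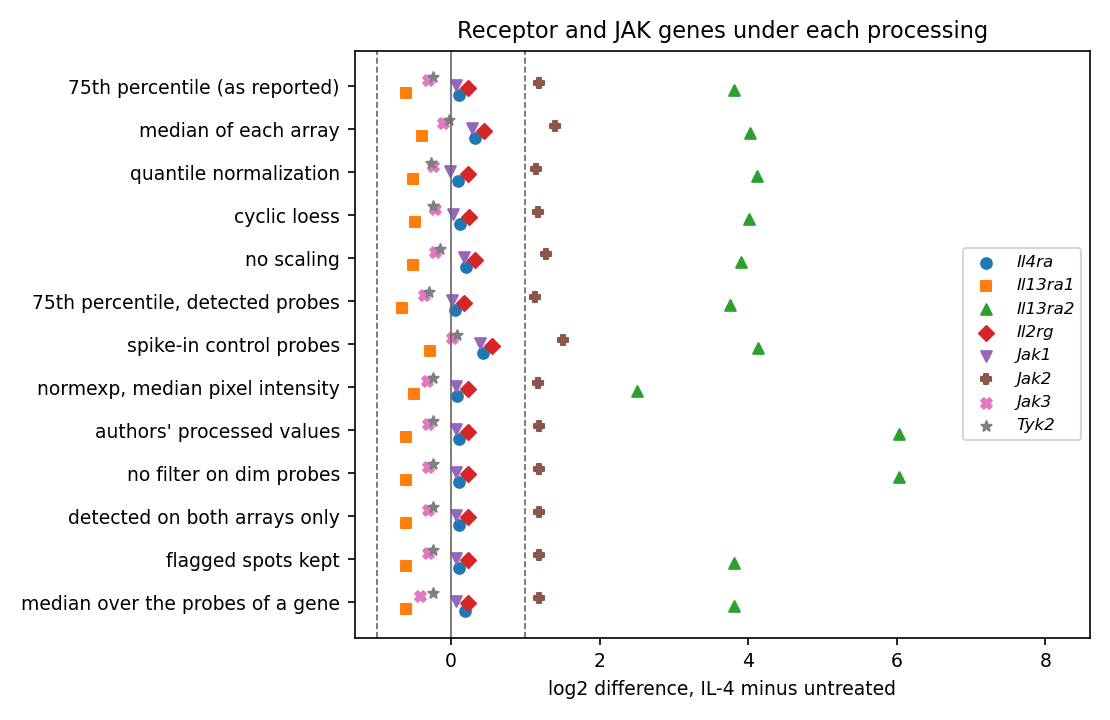
Log2 difference, IL-4 minus untreated (x axis), of each receptor and JAK gene under the reported processing and 12 alternatives (y axis), where each symbol is a gene and dashed lines mark 2-fold. Il13ra2 (a lower bound except in the authors' values and without a filter) lies between 2.50 and 6.03 and Jak2 between 1.13 and 1.51, while the other genes stay between the dashed lines.

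The genes next to the changed members in the order of log2 difference are given as a description, since 2 arrays give no further pattern to match. Among 14093 named genes, the bound of Il13ra2 took place 20, and since it is a bound, its true place among its neighbours is not known. Next to the bound, on the higher side, were Chil3 at 3.83, which encodes the M2 marker Ym1, Ccl7 at 3.84, a monocyte chemokine, and Gatm at 3.87, an enzyme of creatine synthesis. On the lower side were Scn3a at 3.68, Krt18 at 3.62 and Cst7 at 3.49, each of these a lower bound too. Jak2 took place 315, between Btbd11, Cd300ld and Pcdh7, at 1.19 each, and Serpinb2, Mapk4 and Glrx, at 1.18 each, that of Mapk4 a lower bound.

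The genes around the receptor were read as lists by role. The ligand genes Il4 and Il13 were not detected in either condition. Of 12 signalling genes, the STATs, adaptors and phosphoinositide 3-kinase subunits, 11 were measured. Of these, 0 were at least 2-fold changed, where 2.85% of all detected genes were at least 2-fold higher and 4.47% lower. At the brightest probe of each gene the median log2 difference was -0.045, with a range from -0.36 for Pik3cd to 0.57 for Stat5a. Dimmer probes of Stat3 and Pik3cd reached -0.62 and -0.51, where the brightest gave -0.045 and -0.36. Stat6, the main target of this receptor, gave intensities of 2607 and 2277 at its brightest probe, a log2 difference of -0.29, and its other probes gave -0.23 and -0.27.

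The inhibitors of the pathway were all detected. Of 12 inhibitor genes, 3 were at least 2-fold higher and 0 were at least 2-fold lower, against 2.85% and 4.47% of all 19766 detected genes. Their median log2 difference was 0.31. Cish, a SOCS family inhibitor of STAT5 signalling, gave 212.0 and 5761, a log2 difference of 4.67. Socs1, which binds and blocks JAKs, gave 242.4 and 5376, a log2 difference of 4.37. Socs2, another family member, gave 506.5 and 1129 at its brightest probe, and its 3 probes were 2.08-fold to 2.26-fold higher. The log2 difference of the brightest, 1.06 as reported, was 0.97 with normexp, just under 2-fold. The phosphatases Ptpn1, Ptpn6 and Ptpn11 had log2 differences of 0.16, -0.033 and 0.085, and Ptpn2, which acts on JAK1 and JAK3, had 0.49 at its brightest probe, with 0.25 and 1.12 at the dimmer ones.

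The γ chain serves other receptors, whose partner chains were read as a list of 6, of which 3 were detected. Of these 3, 1 was at least 2-fold higher, against 2.85% of all detected genes. It was Il15ra, at its brighter probe only. Il2ra, Il2rb and Il9r were not detected in either condition. Il21r gave 509.2 in untreated and 877.2 in IL-4-treated BMDMs, a log2 difference of 0.69 that came to 1.01 with spike-in scaling. Il7r gave 5347 and 4047, a difference of -0.50. Il15ra had probes that disagreed, with a brighter one at 6298 and 17096, a difference of 1.34, and a dimmer one at 148.3 and 77.9, a difference of -1.03, and they carry different transcript accessions.

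**Figure D4:**
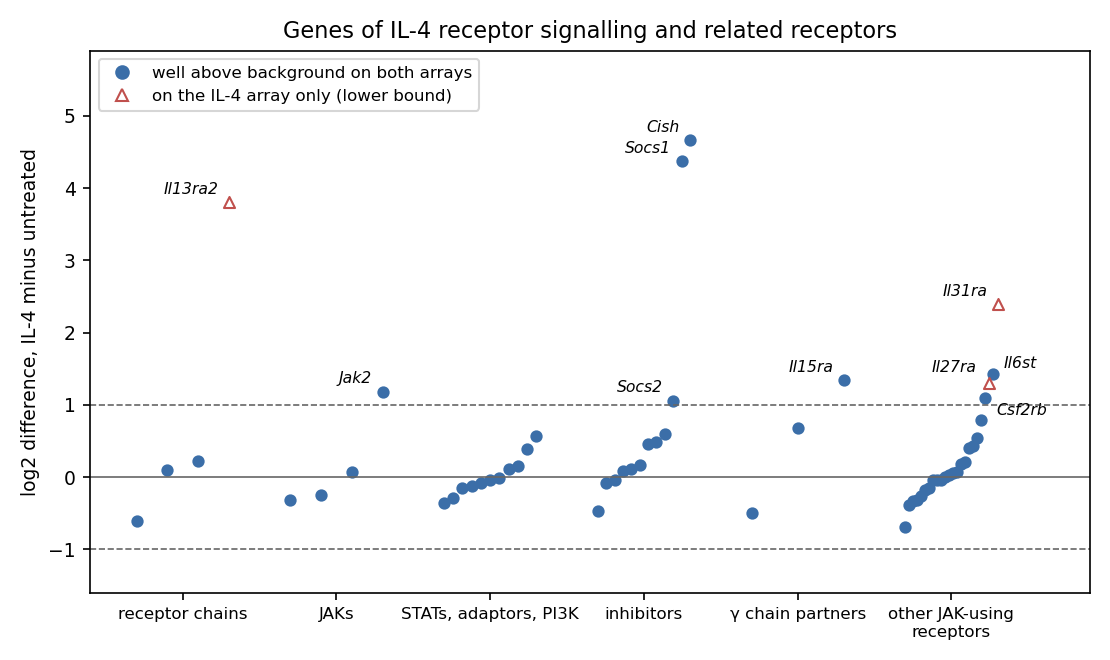
Log2 difference, IL-4 minus untreated (y axis), for the receptor chains, the JAKs, the signalling genes, the inhibitors, the γ chain partners and other receptors that use JAKs (x axis), with 1 point per gene from its brightest probe. Blue circles were detected on both arrays, open triangles with IL-4 only and are lower bounds, dashed lines mark 2-fold, and the highest points as drawn are Cish at 4.67, Socs1 at 4.37 and Il13ra2 at its bound of 3.81.

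The labels of the treatment and of the cells were checked on known genes. Arg1 was 216-fold, Chil3 14.2-fold and Mrc1 5.33-fold higher after IL-4, and Retnla at least 595-fold. On the log2 scale the bound of Retnla was 9.22, and it was as low as 7.51 over the alternatives. All 6 macrophage markers matched on the arrays were detected on both, with a median log2 difference of -0.71. It was -0.49 when each gene was read from the median over its probes. Itgam was at -0.71 at its brightest probe and at -0.24 and -0.27 at its dimmer ones. Csf1r was at 0.090, Adgre1 at 0.17, Lyz2 at -0.70, Mertk at -1.14 and Fcgr1 at -1.23. The last pair were at least 2-fold lower, but Mertk came to -0.92 with median scaling, and with spike-in scaling Mertk came to -0.81 and Fcgr1 to -0.90. Fibroblast markers were also bright, and all 4 were detected on both arrays, with Col1a2 at 233342 and 234332, Col1a1 at 58153 and 49150, Dcn at 10912 and 10595, and Pdgfra at 784.9 and 1195. Their summed intensity was 303192 in untreated and 295272 in IL-4-treated BMDMs, where that of the 6 macrophage markers was 281647 and 267794. The log2 differences of the fibroblast markers ran from -0.34 to 0.51. Whether any receptor signal came from such cells was not tested, and fewer cells of a type cannot be told apart from less RNA per cell. Of 6 T cell markers 3, of 4 B cell markers 1 and of 4 eosinophil markers 3 were detected, and none of these was at least 2-fold changed. Of the 5 neutrophil markers on the arrays all were, from -0.80 to 0.30. On the NK list, Ncr1 was detected without IL-4 only, at least 1.56-fold lower, and Klrb1c on neither. The log2 bound of Ncr1, -0.64 as reported, was -0.20 with quantile normalization. Of the 4 mast cell and basophil markers, Cpa3 was at least 3.51-fold lower, Mcpt8 was at -0.74, and Fcer1a and Mcpt4 were not detected. The log2 bound of Cpa3, -1.81 as reported, weakened to as little as -1.03 over the alternatives. Of the 43020 spots for genes, 59.8% were detected in untreated and 57.4% in IL-4-treated BMDMs, and 0 were saturated.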

How the data were processed

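RNA of untreated and IL-4-treated BMDMs was measured on 1 array each. The authors deposited the spot intensity of each array from Feature Extraction 10.10.1.1, background-subtracted and detrended per array with no step across arrays, on an mm9 design, and a series table of processed log2 values whose making is not stated. In that table each probe's log2 values have an unknown centre (column medians 0.16 and 0.016), and the differences for members equal those of the scanner intensity after a constant. Arrays were grouped by their labels, and both lay on 1 slide.

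Control and outlier-flagged spots were left out, log2 intensity was averaged over the spots of a probe, and each array's 75th percentile was subtracted. A gene was read from its brightest detected probe, where detected means well above background (the scanner's flag) on either array. For a probe detected on a single array, the other array was set to its own signal or the dimmest detected signal, whichever was higher, which gives a bound, and a probe detected on neither has no fold. RefSeq accessions named 27229 of 39424 probes through a GRCm38.p6 table. The genes named are all members, list genes at least 2-fold changed with Stat6, the ligands, the γ chain partners and the IL-4 response genes, and the 3 named genes on each side of a changed member, and other named list genes are examples chosen after their values were seen. Members and lists were chosen with earlier results of these data known. The spot SD is the median over repeated probes within 1 log2 unit, from 399 such probes. Precision is limited by having 2 arrays. The step that counts changed probes was tested on simulated data. Every changed probe there was bright enough to be detected on both arrays, so the bound for dim probes was not tested. Alternatives were other scalings, normexp with an offset of 50, the authors' processed values, filters on dim probes, flagged spots, probe rules and a cutoff of 1.5-fold. Python 3.11.15, numpy 2.4.6, pandas 2.3.3, matplotlib 3.10.9, R 4.3.3 and limma 3.58.1 were used.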

Additional observations from a re-analysis of the deposited data

How the results depend on the processing

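No paired analysis was possible because there was a single array in each condition, and no replicate could be left out. Normexp used the median pixel intensity, as no mean is given. The 2 members at least 2-fold higher numbered 1 among genes detected on both arrays, since Il13ra2 then has no value, and the 0 members at least 2-fold lower became 1, Il13ra1, at a cutoff of 1.5-fold. Every other alternative gave 2 and 0. Of all genes, 564 were at least 2-fold higher, against 1022 with spike-in scaling, 295 with normexp, 850 in the authors' values, 1389 without a filter on dim probes, 364 among genes detected on both arrays and 1207 at the 1.5-fold cutoff. Against 883 at least 2-fold lower there were 564 after median scaling, 533 after quantile normalization, 451 after spike-in scaling, 266 after normexp, 1665 in the authors' values, 4075 without a filter, 270 among genes detected on both arrays and 2172 at the 1.5-fold cutoff. Genes higher outnumbered those lower after median scaling (828 to 564), quantile normalization (804 to 533), cyclic loess (694 to 632), spike-in scaling, normexp (295 to 266) and among genes detected on both arrays (364 to 270). The filters and the cutoff change these counts by construction, and for the others the cause was not tested. No member at least 2-fold changed reversed. Jak1 changed sign with quantile normalization, and Jak3 and Tyk2 with spike-in scaling, which moves all genes alike and leaves both below the median of all genes, at -0.30 and -0.23 relative to it. Signal near background limits Il13ra2 in untreated BMDMs to a bound.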

Other observations

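Other receptors that signal through the same kinases were read as a list of 28 genes, all on the arrays, of which 24 were detected, that is well above background on at least 1 array. Of these, 4 were at least 2-fold higher and 0 were at least 2-fold lower, against 2.85% and 4.47% of all 19766 detected genes. Among the 22 detected on both arrays, 2 were at least 2-fold higher. The median log2 difference over the 24 was 0.047. Il6st, which encodes gp130, the shared chain of the IL-6 family that uses JAK1, JAK2 and TYK2, gave an intensity of 2413 in untreated and 6933 in IL-4-treated BMDMs, a log2 difference of 1.42. Csf2rb, the JAK2-binding common β chain for GM-CSF, IL-3 and IL-5, gave 17176 and 39150 at its brighter probe, a difference of 1.09, with 1.02 at the dimmer probe, and came to 1.0 with quantile normalization, where it was no longer counted as 2-fold. The near-identical Csf2rb2 was at 0.54 and 0.84 at its probes, and cross-hybridisation between the pair was not tested. Il31ra, a gp130-like chain for IL-31, and Il27ra, which pairs with gp130, were detected with IL-4 only, at least 5.25-fold and at least 2.47-fold higher, though over the alternatives the log2 bound was as low as 1.46 for Il31ra and 0.35 for Il27ra. The other probe of Il31ra was not detected in either condition.

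The remaining members of this list were within 2-fold, although Il11ra1, which pairs with gp130 to bind IL-11, gave 12895 and 23932, a log2 difference of 0.79 that came to 1.01 with median scaling and 1.12 with spike-in scaling. Ifnar1 and Ifnar2, the receptor of type I interferon that uses TYK2 and JAK1, were at 0.005 and -0.039. Ifngr1 and Ifngr2, which use JAK1 and JAK2 for interferon γ, were at 0.18 and 0.40. Il10ra gave 4469 in untreated and 2972 after IL-4, a difference of -0.69, while its partner Il10rb was at 0.43. Il12rb2, Il23r, Il5ra and Prlr were not detected in either condition.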
